A study of Mus musculus with 8 samples.

Results

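The small leucine-rich proteoglycans are secreted proteins of the extracellular matrix whose core is a curved stack of leucine-rich repeats. Their genes were followed in bulk RNA sequencing of 8 mouse tumours. The members are 10 genes taken by name from the deposited table of 35275 genes, namely Dcn, Bgn, Aspn, Lum, Fmod, Prelp, Omd, Ogn, Chad and Podn, and all 10 were found and had enough counts to be tested.

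Every tumour came from a conditional mouse model in which Cre recombinase, carried by an adenovirus injected into the peritoneum, acts on floxed alleles. All 8 tumours carried Nf2 f/f and Cdkn2a f/f alleles, which the labels also give as Nf2-/- and Cdkn2a-/- after recombination, so no tumour here had either gene intact by its label. Pak2 was wild-type in 3 primary peritoneal tumours (19, 20 and 127). It was f/f and given as -/- in 4 primary peritoneal tumours (13, 14A, 59 and 61) and in 1 secondary tumour (14B), and these are called Pak2-null here. The virus reaches whichever peritoneal cells it infects, and the labels name no promoter that limits Cre to a cell type. They do not say which tumours came from separate animals, so the p-values measure only the spread between these samples.

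Small leucine-rich proteoglycans bind collagen fibrils and govern how thick the fibrils grow and how they are spaced. Many carry chondroitin, dermatan or keratan sulphate chains, and several also bind growth factors such as TGF-beta or act on cell surface receptors. In mesenchymal tissue, decorin, biglycan and lumican are common products of fibroblasts, whereas fibromodulin, PRELP, osteoglycin and chondroadherin are known from tendon, cartilage and bone.

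CPM are counts scaled to a common library size and corrected for library composition. Pak2 measured 128, 90.1 and 92.7 CPM in wild-type tumours 19, 20 and 127, 186, 238, 165 and 131 CPM in tumours 13, 14A, 59 and 61 labelled Pak2-null, and 239 CPM in tumour 14B. Its transcripts were therefore not reduced where the label says null, and the sources used here do not give the deleted part of the gene, so Pak2-null and wild-type mean the label throughout. Nf2 ran from 74.6 to 142 CPM and Cdkn2a from 2.37 to 6.43 CPM over the 8 tumours, so transcripts of both were present in every tumour and their loss, too, is given only as labelled. Total counts ran from 13469851 to 20402401 a tumour, and a count of 0 allows a level of up to 3 counts, 0.139 to 0.311 CPM. The secondary tumour 14B and the primary tumour 14A held transcripts of the exocrine pancreas, with the digestive enzyme gene Pnlip at 24758 and 2925 CPM against at most 5.33 CPM in the other tumours. Of 12 mesothelial markers Calb2 was at most 0.308 CPM in every tumour, Msln ran from 1.11 to 132 CPM, and the summed level ran from 114 to 466 CPM. Tumour 13 was low in some of these markers, with 0.124 CPM or less of Upk3b, Lrrn4, Krt8 and Krt18, and not in others, with Pdpn at 170.1 CPM against 85.0 to 124 CPM in the wild-type tumours, and Krt19 and Wt1 at 5.51 and 2.91 CPM, above wild-type tumours 20 and 127. Since each sample is a whole piece of tumour, fewer cells of a type and less RNA per cell cannot be told apart.

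The promoters of the 4 members with the lowest p in the comparison of the groups are shown first, because these genes shared a direction while lying on 3 chromosomes. Each is the 250 bases before the RefSeq start (GRCm38.p6), 5′ to 3′ on the strand of the gene. The windows are chr1:134037004-134037253 (plus strand) for Fmod, chr1:133921402-133921651 (minus strand) for Prelp, chr13:49607765-49608014 (plus strand) for Ogn and chr11:94564797-94565046 (plus strand) for Chad. Capitals mark a TATA box (TATAAA), the TEAD site GGAATG, bound by the partners of YAP downstream of Nf2, and the Smad-binding letters CAGAC, on either strand.
Fmod: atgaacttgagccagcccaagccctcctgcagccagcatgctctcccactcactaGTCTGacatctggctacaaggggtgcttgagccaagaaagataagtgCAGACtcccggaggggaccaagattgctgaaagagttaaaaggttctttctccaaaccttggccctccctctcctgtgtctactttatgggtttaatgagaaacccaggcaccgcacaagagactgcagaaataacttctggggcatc
Prelp: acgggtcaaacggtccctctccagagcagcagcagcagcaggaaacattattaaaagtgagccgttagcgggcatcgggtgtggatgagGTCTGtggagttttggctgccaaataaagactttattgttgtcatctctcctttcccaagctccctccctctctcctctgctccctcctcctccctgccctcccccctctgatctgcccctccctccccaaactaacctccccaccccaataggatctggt
Ogn: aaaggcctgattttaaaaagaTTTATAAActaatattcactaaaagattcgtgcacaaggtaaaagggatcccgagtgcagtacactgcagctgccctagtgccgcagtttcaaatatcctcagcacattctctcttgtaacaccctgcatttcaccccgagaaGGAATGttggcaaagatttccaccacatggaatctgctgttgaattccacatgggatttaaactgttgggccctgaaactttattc
Chad: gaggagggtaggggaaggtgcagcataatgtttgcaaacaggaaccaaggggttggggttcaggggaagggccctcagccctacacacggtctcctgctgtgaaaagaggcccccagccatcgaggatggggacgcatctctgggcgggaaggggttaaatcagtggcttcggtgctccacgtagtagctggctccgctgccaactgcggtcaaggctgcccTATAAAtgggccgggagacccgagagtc
The Chad window held a TATA box whose first base is 28 bases before the start. In the Ogn window TATA letters overlapped on both strands from 229 bases before the start, and a TEAD site began 86 bases before it. Bases just after this Ogn start were found in no Ogn transcript of GENCODE M21, and the deposited gene begins at 49608071. The Ogn distances are therefore less certain than those in the Fmod, Prelp and Chad windows, where such bases were found. The Fmod window held CAGAC letters at 195 and 148 bases before the start, and the Prelp window held them at 161 bases before it. Of 32851 promoter windows of this length from RefSeq, 12.4% held TATAAA, 12.6% GGAATG and 42.2% CAGAC. The table had windows for 8 of the 10 members (9 windows, with 2 for Podn) and none for Dcn or Lum. TATAAA occurred in 3 of the 9 windows, those of Chad, Ogn and Aspn, GGAATG in 1 and CAGAC in 2. Neither the AP-1 letters TGANTCA (6.75% of all windows) nor the GLI letters GACCACCC (0.703%) occurred in these 9 windows. The letters describe the windows and do not show that a factor binds there.

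Per deposited gene length, Bgn and Dcn made up most of the family in every tumour. Their exon lengths in GENCODE M21 are longer, at 6099 against 2666 bases for Bgn and 5838 against 1886 bases for Dcn. Such lengths lower the shares of the pair, and shares in each tumour were not computed with them. RPKM, the CPM divided by the deposited gene length in kilobases, averaged 1221 for Bgn and 497 for Dcn over the 7 primary tumours. Lum (137), Prelp (109), Ogn (92.5), Aspn (85.7) and Fmod (66.2) followed, and Podn (14.6), Omd (4.68) and Chad (4.40) were low. Neighbours in this order from Lum down to Fmod lay within each other's ranges, which spanned 25.1 to 268 RPKM for Lum and 1.25 to 279 RPKM for Fmod. Omd and Chad also overlapped, at 0.264 to 14.3 and 0.257 to 18.6 RPKM. Among protein-coding genes Bgn ranked between 13 and 50 by RPKM in 6 of the 7 primary tumours and at 338 in tumour 14A. Its level varied 9.24-fold between the primary tumours and that of Dcn 2.83-fold, whereas Fmod varied 223-fold.

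Together Bgn and Dcn held 83.5, 64.0 and 62.7% of the family's summed RPKM in wild-type tumours 19, 20 and 127. They held 89.8, 90.6, 84.0 and 82.8% in Pak2-null tumours 13, 14A, 59 and 61, so the groups overlapped through tumour 19. Prelp, Fmod and Ogn together held 6.08, 19.4 and 31.6% in the wild-type tumours and 1.61, 3.19, 2.15 and 3.62% in the Pak2-null tumours. Those 3 genes were grouped after their values were seen, so it is no test that their summed shares did not overlap between the groups. The share of Ogn alone did overlap, at 1.15% in wild-type tumour 19 and 1.44% in Pak2-null tumour 61. By deposited lengths Dcn was the larger of the pair in tumour 14A, with a Bgn to Dcn ratio of 0.782, against 1.65 to 4.97 in the other 6 primary tumours. Which gene is larger within a tumour depends on the lengths used. That the ratio was lowest in tumour 14A does not.

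**Figure D1:**
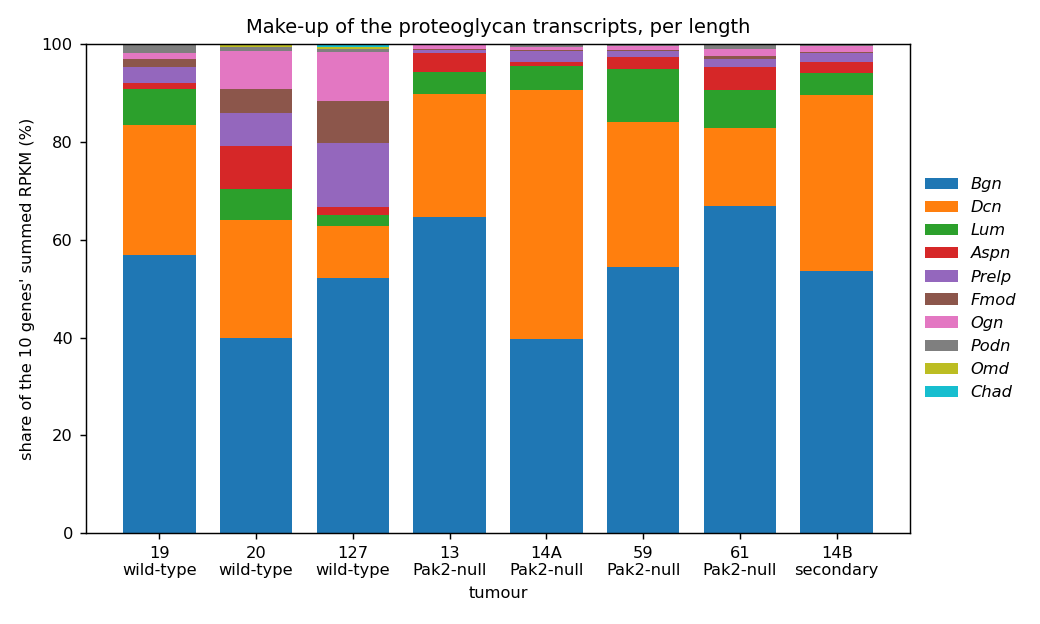
Share of each gene (stacked colours) in the summed RPKM of the 10 proteoglycan genes (vertical axis, %) for each tumour (horizontal axis). RPKM use the deposited gene lengths, on which these shares depend. Bgn and Dcn fill 82.8 to 90.6% of the bars of the 4 Pak2-null primary tumours, and Prelp, Fmod and Ogn fill 31.6% of the bar of wild-type tumour 127.

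The comparison of the 4 Pak2-null with the 3 wild-type primary tumours asks how these genes differ with Pak2 in tumours that all carry the Nf2 and Cdkn2a alleles given above. By the quasi-likelihood test of edgeR, adjusted over all 15412 tested genes by the method of Benjamini and Hochberg, 0 members passed the threshold of 0.05, where 11 genes (0.0714%) did, 0.0519% lower and 0.0195% higher in the Pak2-null tumours. At an unadjusted p under 0.05 there were 4 members, all lower in the Pak2-null tumours (Fmod, Prelp, Ogn and Chad), where 8.55% of all tested genes were lower at that threshold and 4.39% higher. DESeq2 and limma-voom with quality weights, both with Benjamini-Hochberg adjustment, each called those same 4, all lower. DESeq2 called 7.71% of the genes it tested (5.63% lower) and limma-voom 6.16% (4.59% lower). The adjusted p was 4.18e-05 by DESeq2 and 0.0194 by limma-voom for Fmod, 2.48e-04 and 0.0200 for Prelp, 0.00855 and 0.0306 for Ogn, and 9.03e-05 and 0.0342 for Chad, so the call on these genes differed between the tools. The median log2 fold change, Pak2-null minus wild-type, was -1.68 over the 10 members and 0.06 over all tested genes. Of the members 8 had a negative and 2 a positive log2 fold change, where 7009 and 8403 of the 15412 tested genes did. The groups did not overlap in 4 members, Fmod, Prelp, Chad and Podn, each lower in the Pak2-null tumours, as were 8.93% of tested genes, and 0 members lay higher without overlap, where 5.07% of genes did.

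The differences in Fmod, Prelp, Ogn and Chad were smaller when wild-type tumours 20 and 127 were both left out. With tumour 19 as the only wild-type tumour their log2 fold changes were -2.05, -1.14, 0.12 and -1.92. That fit assumes that the lone tumour varies like the Pak2-null group. Without tumour 127 the values were -3.80, -2.37, -2.66 and -2.88, and without tumour 20 they were -4.70, -3.37, -3.18 and -3.99. Without tumour 19 the same 4 members had an unadjusted p under 0.05 by edgeR's test, where 15% of genes did. After adjustment 0 were called, where 0.37% of genes were. Tumours 20 and 127 also carried the highest skeletal muscle transcripts. The 9 skeletal muscle markers summed to 21290 and 21130 CPM there and to 2133 CPM in tumour 19, against 18.3 to 561 CPM in the Pak2-null primary tumours. All 9 were lower in the Pak2-null tumours, with groups that did not overlap, where 8.93% of tested genes were lower without overlap. Of the 9, 0 passed edgeR's adjusted test. The part of muscle tissue in the proteoglycan values was not tested.

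Dcn, Bgn and Aspn form class I of the family. Dcn encodes decorin, which coats collagen fibrils and binds TGF-beta. It stood at 789, 1282 and 653 CPM in wild-type tumours 19, 20 and 127 and at 1352, 483, 1366 and 640.4 CPM in Pak2-null tumours 13, 14A, 59 and 61. High and low tumours occurred in both groups, and the groups overlapped throughout. The log2 fold change was 0.11 (SE 0.49, edgeR quasi-likelihood, Benjamini-Hochberg adjusted p = 0.948).

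Bgn encodes biglycan, which assembles collagen and can signal through Toll-like receptors when released. It stood at 2387, 2986 and 4593 CPM in wild-type tumours 19, 20 and 127 and at 4929, 534, 3557 and 3806 CPM in Pak2-null tumours 13, 14A, 59 and 61. Tumour 14A lay far below the other 6, which spanned both groups. The log2 fold change was -0.03 (SE 0.70, edgeR quasi-likelihood, Benjamini-Hochberg adjusted p = 0.992), and without tumour 14A it was 0.32. Bgn lies on the X chromosome. The X-inactivation RNA Xist stood at 151, 459 and 26.6 CPM in wild-type tumours 19, 20 and 127 and at no more than 1.33 CPM in every Pak2-null tumour. The Pak2 label and the level of Xist therefore cannot be told apart, for this X-linked gene or for any other member. The Y-linked gene Ddx3y did not follow the label: it had 1.62 and 1.24 CPM in wild-type tumours 19 and 20 but 116 CPM in wild-type tumour 127, beside 85.4 to 104 CPM in the Pak2-null primary tumours. Sex was not a term in the fits, and its part in the differences of any member was not tested.

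Aspn encodes asporin, which binds collagen and TGF-beta and lacks a glycosaminoglycan chain. It stood at 42.2, 587 and 138 CPM in wild-type tumours 19, 20 and 127 and at 252, 8.12, 139 and 241 CPM in Pak2-null tumours 13, 14A, 59 and 61. The extremes lay 1 in each group, tumour 20 high and tumour 14A low. The log2 fold change of -0.65 (SE 1.14) became 0.86 without tumour 20.

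Class II holds Lum, Fmod, Prelp and Omd, which were first known as keratan sulphate proteoglycans or their relatives. Lum encodes lumican, which spaces the fibrils of cornea and skin. It stood at 241, 368 and 153 CPM in wild-type tumours 19, 20 and 127 and at 269.6, 52.2, 557 and 345 CPM in Pak2-null tumours 13, 14A, 59 and 61. The Pak2-null tumours held both the highest and the lowest value. Its log2 fold change was 0.29 (SE 0.71, edgeR quasi-likelihood, Benjamini-Hochberg adjusted p = 0.889).

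Fmod encodes fibromodulin, which binds the same region of collagen as lumican and is abundant in tendon. It stood at 77.1, 426 and 869.95 CPM in wild-type tumours 19, 20 and 127 and at 17.0, 3.91, 9.81 and 41.6 CPM in Pak2-null tumours 13, 14A, 59 and 61. Every Pak2-null tumour lay below every wild-type tumour, with tumour 61 nearest to tumour 19. The means were 458 ± 397 and 18.1 ± 16.6 CPM (SD, n = 3 and n = 4), a log2 fold change of -4.65 (SE 1.03, unadjusted p = 0.00249, edgeR quasi-likelihood, Benjamini-Hochberg adjusted p = 0.123). Leaving out any 1 tumour gave -5.45 to -3.80, and with tumour 19 as the only wild-type tumour the value was -2.05.

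Prelp encodes a proline- and arginine-rich member that anchors basement membranes to collagen. It stood at 191, 676 and 1562 CPM in wild-type tumours 19, 20 and 127 and at 71.0, 39.98, 104 and 119.7 CPM in Pak2-null tumours 13, 14A, 59 and 61. The order of the wild-type tumours was that of Fmod, and again no Pak2-null tumour reached tumour 19. The means were 809 ± 695 and 83.7 ± 35.6 CPM (SD, n = 3 and n = 4), a log2 fold change of -3.25 (SE 0.72, unadjusted p = 0.00236, edgeR quasi-likelihood, Benjamini-Hochberg adjusted p = 0.123). Leaving out any 1 tumour gave -3.73 to -2.37, and tumour 19 alone gave -1.14. The antisense gene Gm15851 shares 350 of 3615 exon bases with Prelp, and its own level was at most 0.642 CPM.

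Omd encodes osteomodulin, a keratan sulphate proteoglycan of bone. It was low everywhere, at 2.09, 12.9 and 22.2 CPM in wild-type tumours 19, 20 and 127 and at 1.24, 0.411, 2.65 and 9.47 CPM in Pak2-null tumours 13, 14A, 59 and 61. Tumours 59 and 61 lay above wild-type tumour 19, so the groups overlapped. Its log2 fold change was -1.83 (SE 1.11, edgeR quasi-likelihood, Benjamini-Hochberg adjusted p = 0.542), and 0.76 with tumour 19 as the only wild-type tumour.

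Ogn, of class III, encodes osteoglycin, also called mimecan, a proteoglycan first found in bone. It stood at 46.1, 566 and 841 CPM in wild-type tumours 19, 20 and 127 and at 53.3, 9.51, 52.3 and 78.1 CPM in Pak2-null tumours 13, 14A, 59 and 61. Wild-type tumours 20 and 127 stood apart from all others, while tumour 19 lay below 3 of the 4 Pak2-null tumours. The means were 484 ± 403 and 48.3 ± 28.5 CPM (SD, n = 3 and n = 4), a log2 fold change of -3.31 (SE 0.99, unadjusted p = 0.0116, edgeR quasi-likelihood, Benjamini-Hochberg adjusted p = 0.197). With tumour 19 as the only wild-type tumour the value was 0.12.

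Chad, of class IV, encodes chondroadherin, a cartilage protein that binds collagen and integrins and carries no glycosaminoglycan chain. It stood at 4.36, 11.9 and 31.2 CPM in wild-type tumours 19, 20 and 127 and at 1.30, 1.90, 0.432 and 0.751 CPM in Pak2-null tumours 13, 14A, 59 and 61. These Pak2-null levels rest on 7 to 37 counts a tumour, and all lay below tumour 19. Chad had a log2 fold change of -3.81 (SE 0.79, unadjusted p = 0.00172, edgeR quasi-likelihood, Benjamini-Hochberg adjusted p = 0.117), with -4.28 to -2.88 when any 1 tumour was left out and -1.92 with tumour 19 alone. The Chad gene lies within the span of Acsf2 on the other strand, shares 0 exon bases with it in GENCODE M21, and Acsf2 had a log2 fold change of 0.01.

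Podn, of class V, encodes podocan, a collagen-binding protein known from smooth muscle. It stood at 93.5, 82.2 and 79.3 CPM in wild-type tumours 19, 20 and 127 and at 22.2, 4.73, 34.6 and 55.4 CPM in Pak2-null tumours 13, 14A, 59 and 61. The wild-type tumours lay close together, at 85.0 ± 7.53 CPM (SD, n = 3), and above all Pak2-null tumours, at 29.2 ± 21.3 CPM (SD, n = 4). Podn had a log2 fold change of -1.52 (SE 0.67, unadjusted p = 0.0545, edgeR quasi-likelihood, Benjamini-Hochberg adjusted p = 0.400). With tumour 19 as the only wild-type tumour it was -1.63, so unlike that of Fmod, Prelp, Ogn and Chad its size did not shrink without tumours 20 and 127. The 7 smooth muscle and pericyte markers summed to 1081, 1557 and 1671 CPM in the wild-type tumours and to 571, 191, 337.5 and 924.5 CPM in the Pak2-null primary tumours, also without overlap. Singly, 3 of the 7 (Myh11, Cnn1 and Notch3) were lower without overlap, as were 8.93% of tested genes. Acta2, Tagln and Rgs5 overlapped between the groups, and Kcnj8 had a log2 fold change of 0.54. The part of these cells in the result was not tested.

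**Figure D2:**
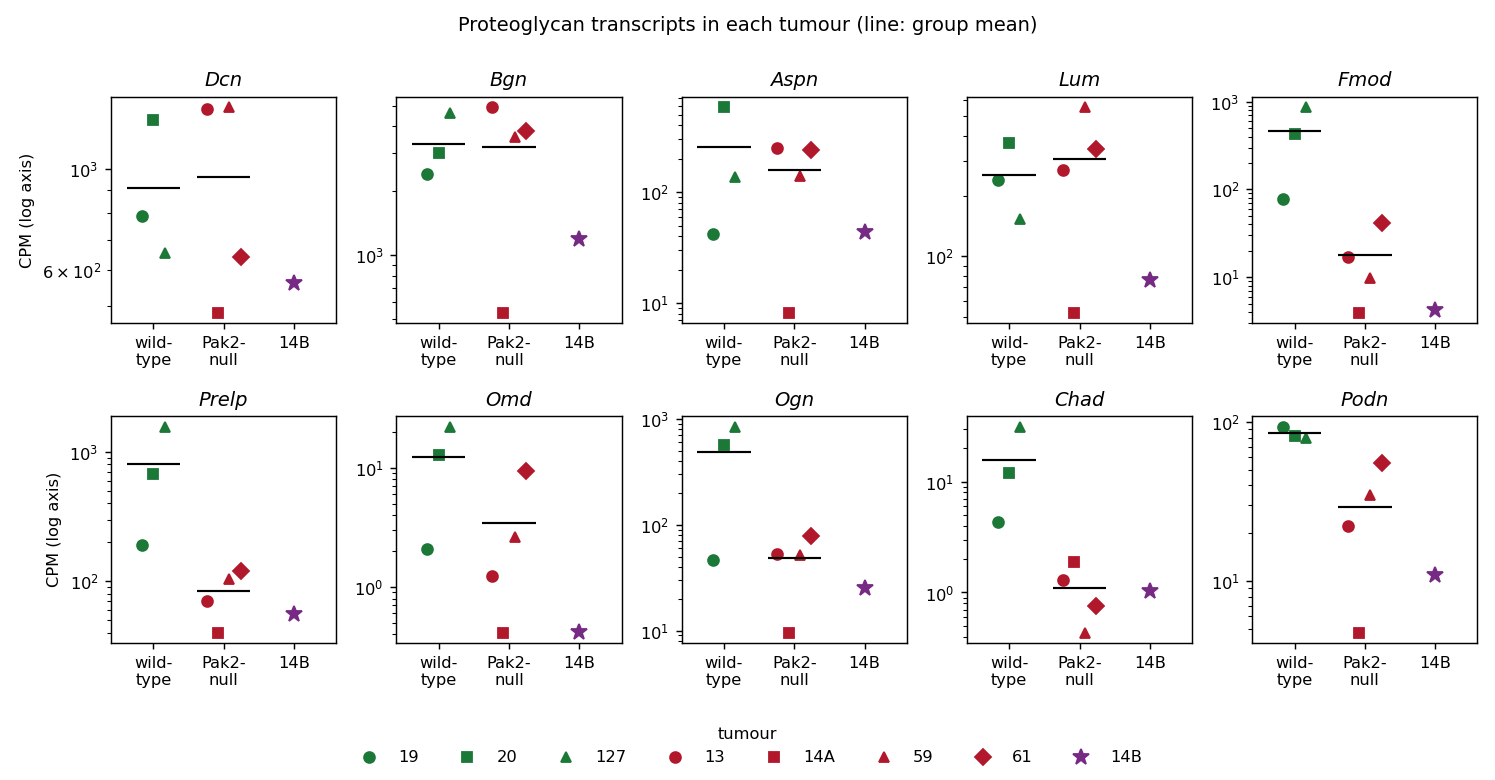
CPM of each gene (vertical log axes, each with its own span) in the 3 wild-type primary, 4 Pak2-null primary and 1 secondary tumour (14B), with a symbol for each tumour and a line at the group mean. Fmod, Prelp, Chad and Podn show no overlap between the primary groups, and tumour 14A is the lowest primary tumour for every gene but Chad.

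**Figure D3:**
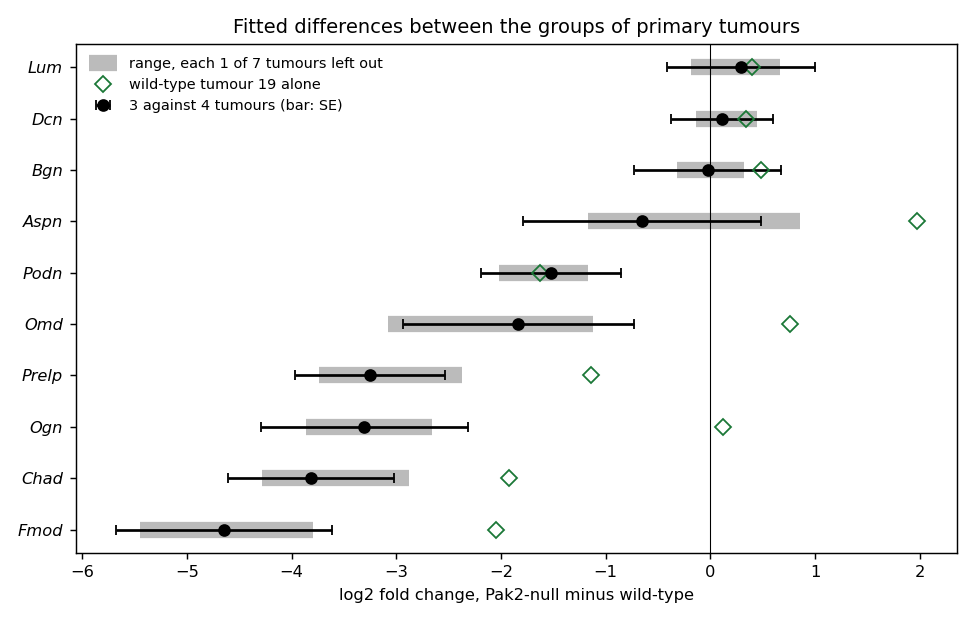
Log2 fold change of each gene, Pak2-null minus wild-type (horizontal axis), with its SE, the range when each of the 7 primary tumours is left out in turn (grey) and the value with tumour 19 as the only wild-type tumour (open diamond). The diamonds of Fmod, Prelp and Chad stay below 0 at -2.05, -1.14 and -1.92, and those of Ogn and Omd lie above 0.

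Tumour 14A was the lowest of the 7 primary tumours in 9 of the 10 members, where it was the lowest in 23.9% of all tested genes. The exception was Chad, lowest in tumour 59. Tumour 127 was the highest in 5 members, Fmod, Prelp, Omd, Ogn and Chad, where it was the highest in 16.9% of tested genes. The 12 fibroblast markers summed to 1051 CPM in tumour 14A and to 2135 to 3524 CPM in the other primary tumours, and the 16 fibrillar and fibril-associated collagens to 2548 CPM against 24920 to 33280 CPM. Tumour 14A was the lowest primary tumour for the fibroblast markers Pdgfra, Pdgfrb, Fap, Dpt, Mfap5 and Col15a1. It lay within the others for Thy1, Pi16, Tcf21, Clec3b and Gsn (606 CPM, beside 598 CPM in tumour 19). For Dpp4 it was the highest, at 35.3 CPM against 1.55 to 17.3 CPM. The pancreatic genes were high in tumour 14A, with Cpa1 at 2613 CPM against at most 4.71 CPM in the other primary tumours, and the 7 macrophage markers summed to 7619 CPM there against 1028 to 3055 CPM. Of these 7, tumour 14A was the highest primary tumour in 5 (C1qa, C1qb, Cd68, Itgam and Emr1), lay within the others for Csf1r (368 CPM against 178 to 661 CPM) and was the lowest for Mrc1 (48.8 CPM against 87.1 to 569 CPM). What part these other tissues have in the low proteoglycan levels of tumour 14A was not tested.

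Several members are neighbours in the genome (GRCm38, positions of the deposited table), and neighbours did not always share a pattern. Prelp (ENSMUSG00000041577) lies on chromosome 1, 133910304 to 133921414 on the minus strand, next to Fmod (ENSMUSG00000041559), 134037254 to 134048277 on the plus strand, and both had log2 fold changes under -3. On chromosome 10 Dcn (ENSMUSG00000019929), 97479500 to 97518162, is followed by Lum (ENSMUSG00000036446), 97565501 to 97572703, and neither differed beyond its SE. Next to Lum lies Kera, for keratocan of the cornea, at 0.927, 1.30 and 2.25 CPM in wild-type tumours 19, 20 and 127 and 0 to 0.617 CPM in the Pak2-null primary tumours. On chromosome 13 the genes Ecm2, Aspn (ENSMUSG00000021388), Omd (ENSMUSG00000048368) and Ogn (ENSMUSG00000021390) follow each other from 49504810 to 49624500. Their log2 fold changes were -2.41 for Ecm2, -0.65 for Aspn, -1.83 for Omd and -3.31 for Ogn. The span of Cenpp covers Aspn, Omd and Ogn on the other strand, sharing 7 exon bases with Aspn and 0 with the others, and Cenpp stood at 2.06 to 4.91 CPM in the primary tumours. Chad (ENSMUSG00000039084) lies alone on chromosome 11, 94565047 to 94569127, Podn (ENSMUSG00000028600) on chromosome 4, 108014791 to 108096445, and Bgn (ENSMUSG00000031375) on chromosome X, 73483602 to 73495933.

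Of 8 further members 6 were tested, 0 passed edgeR's test with Benjamini-Hochberg adjustment, and 3 had an unadjusted p under 0.05, all lower in the Pak2-null tumours, where 8.55% of all tested genes were lower at that threshold. Ecm2, a matrix protein gene related to decorin, stood at 14.3, 54.0 and 52.4 CPM in wild-type tumours 19, 20 and 127 and at 4.42 to 11.6 CPM in the Pak2-null primary tumours. Chadl, a relative of chondroadherin, stood at 6.35, 6.39 and 7.83 CPM and at 1.92 to 3.52 CPM, a log2 fold change of -1.40 (SE 0.37). Like Podn it varied little among the wild-type tumours. Tsku, which encodes the secreted signalling modulator tsukushi, overlapped between the groups, with a log2 fold change of 0.72 (SE 0.67).

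These proteoglycans bind fibrillar collagens. Of 16 tested collagens 0 passed the adjusted test and 1, Col14a1, had an unadjusted p under 0.05, as did 12.9% of all tested genes, with a median log2 fold change of -0.32. Col14a1 encodes a fibril-associated collagen that binds decorin. It stood at 255, 334 and 458 CPM in wild-type tumours 19, 20 and 127 and at 145 to 193 CPM in the Pak2-null primary tumours, a log2 fold change of -1.09 (SE 0.27). Col12a1, its close relative, had a log2 fold change of -1.62 (SE 0.79) and groups that did not overlap, at 678 to 1074 CPM against 22.5 to 379 CPM. For Col3a1, a main fibrillar collagen, the value was -0.41 (SE 0.70), and for Col11a1, which seeds fibrils, -0.96 (SE 1.04).

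Enzymes build the sulphated chains on the cores. Of 22 tested chondroitin and dermatan sulphate genes 14 had a positive and 8 a negative log2 fold change, with a median of 0.18. Of all 15412 tested genes 8403 had a positive and 7009 a negative one. Only Chsy3, a chondroitin synthase gene, had an unadjusted p under 0.05 among them (12.9% of all tested genes), at 2.74, 7.26 and 5.84 CPM in wild-type tumours 19, 20 and 127 and 0.7195 to 1.61 CPM in the Pak2-null primary tumours. Csgalnact1, which starts chondroitin chains, ran from 6.78 CPM in tumour 14A to 207.5 CPM in tumour 13, and its log2 fold change was 1.93 (SE 0.96). Chst14, whose product sulphates dermatan, had a log2 fold change of 0.70 (SE 0.37) and Chst13, a chondroitin sulphotransferase gene, -1.67 (SE 1.03). Of 6 tested keratan sulphate genes 0 had an unadjusted p under 0.05, with a median of 0.45. Their named members, Chst1, B3gnt7, B3gnt2 and B4galt1, ranged from 0.25 to 0.66.

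Of 18 tested ligands and receptors of the family 0 passed the adjusted test. At an unadjusted p under 0.05 there were 2 lower and 1 higher in the Pak2-null tumours, where 8.55% of all tested genes were lower and 4.39% higher, and the median log2 fold change was 0.03. Tgfb2, a ligand that decorin, biglycan and fibromodulin can bind, stood at 19.9, 47.5 and 107.6 CPM in wild-type tumours 19, 20 and 127 and at 4.21 to 15.6 CPM in the Pak2-null primary tumours, a log2 fold change of -2.47 (SE 0.67). The growth factor gene Bmp4 had a log2 fold change of -3.18 (SE 0.81). Bmp2, of the same family, was the one in the other direction at 2.42 (SE 0.88), reaching 90.2 CPM in 59 and 38.6 CPM in 13 against 5.96 to 7.70 CPM in the wild-type tumours. Tgfb1 had a log2 fold change of 0.85 (SE 0.38) and groups that overlapped.

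Of 12 tested proteases and helpers that cut the proteoglycans or their partners 0 passed the adjusted test and 1 had an unadjusted p under 0.05, as did 12.9% of all tested genes. It was Adamts5, an aggrecan-cutting protease gene, at 129, 123 and 179.8 CPM in wild-type tumours 19, 20 and 127 and 15.8 to 79.1 CPM in the Pak2-null primary tumours. Bmp1, whose product trims probiglycan, ran from 56.7 CPM in tumour 14A to 1226 CPM in tumour 13, and its log2 fold change was 0.89 (SE 0.88). For the matrix metalloprotease genes the value was 2.16 (SE 1.49) for Mmp13 and -0.89 (SE 0.73) for Mmp12.

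Proteoglycans of other families held 6 of 18 tested genes at an unadjusted p under 0.05, all lower in the Pak2-null tumours (8.55% of all tested genes), and 0 that passed the adjusted test, with a median log2 fold change of -0.37. Cspg4, a pericyte and progenitor surface proteoglycan gene, stood at 87.3, 41.0 and 73.9 CPM in wild-type tumours 19, 20 and 127 and at 5.45 to 25.7 CPM in the Pak2-null primary tumours. Gpc3, a glypican gene of fetal tissues, stood at 309, 50.1 and 33.1 CPM and at 0.124 to 7.66 CPM. The log2 fold change of Cspg4 was -2.07 (SE 0.53) and that of Gpc3 -5.03 (SE 1.30). Spock2, a testican gene, had -2.27 (SE 0.63), and Bcan, the brain proteoglycan brevican, was under 1 CPM in every tumour.

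**Figure D4:**
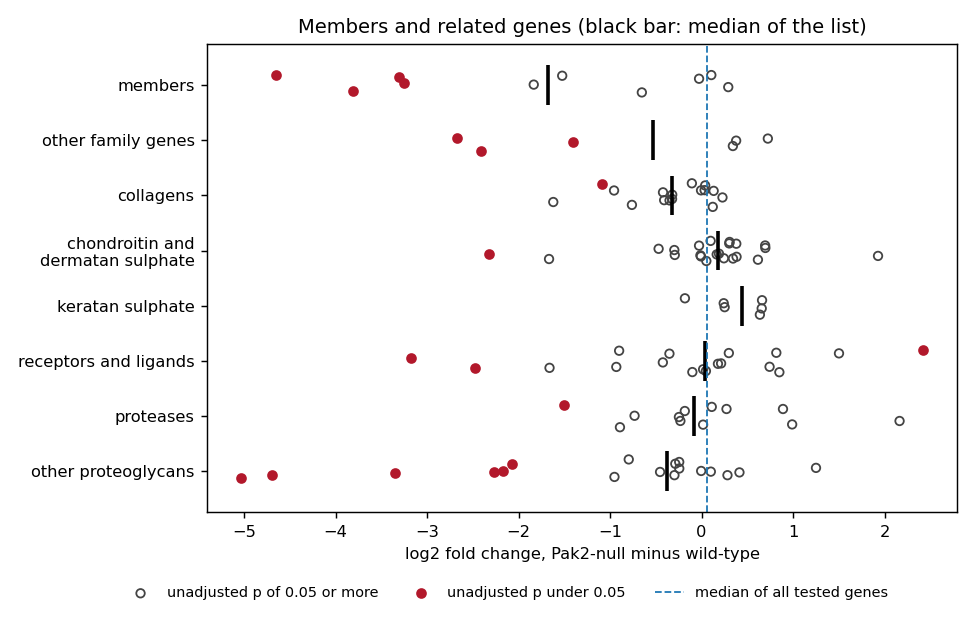
Log2 fold change, Pak2-null minus wild-type (horizontal axis), of each tested gene (points) of the proteoglycan members and 7 related lists (rows), with the list median (black bar) and the median of all tested genes (dashed line, 0.06). Points filled red have an unadjusted p under 0.05, among them 4 members, all between -4.65 and -3.25.

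Tendon and cartilage markers, expressed where several members are known to be abundant, are given beside these values. The 13 cartilage, bone and tendon markers summed to 333, 135 and 286.5 CPM in wild-type tumours 19, 20 and 127 and to 29.8, 5.24, 88.5 and 45.4 CPM in Pak2-null tumours 13, 14A, 59 and 61. All 6 tested markers of this list had a negative log2 fold change, with a median of -2.745. In 3 of them the Pak2-null tumours were lower without overlap, as were 8.93% of tested genes. Single markers did not share 1 pattern over the tumours. Comp had 35.8, 24.1 and 145 CPM in wild-type tumours 19, 20 and 127 and 1.44 to 8.86 CPM in the Pak2-null primary tumours. Acan had 5.38, 3.29 and 42.3 CPM and 0 to 1.92 CPM. The tendon factor gene Scx had 4.54 CPM in tumour 19, 70.5 CPM in tumour 20 and 76.4 CPM in tumour 127, against 1.13 to 3.75 CPM in the Pak2-null primary tumours. Tnmd, the tendon gene for tenomodulin, had 40.2, 29.2 and 10.1 CPM in those wild-type tumours and 0.154 to 20.7 CPM in the Pak2-null ones, with tumour 61 above tumour 127. Mkx, another tendon factor gene, had 2.98 to 4.56 CPM in the wild-type tumours and was higher in Pak2-null tumours 59 and 61, at 5.25 and 5.60 CPM. Cartilage collagen Col2a1 was high in tumours of both groups, at 102 CPM in tumour 19 and 69.4 CPM in tumour 59, with 9.88 CPM in tumour 61 and at most 1.06 CPM in the other primary tumours. The listed markers Sp7 and Col9a2 were high only in tumour 19, at 62.2 and 46.7 CPM. Elsewhere among the primary tumours they had at most 2.12 and 0.557 CPM. The part of these tissues in the proteoglycan values was not tested.

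The genes most like the 3 most abundant members were found among 10398 well-transcribed genes by Pearson correlation of log2 CPM over the 7 primary tumours, which include both groups. They were picked for these correlations, so the values are a description. For Bgn they were Lrp11 (r = 0.999, Spearman's rho = 1), Ptov1 (0.994 and 0.964) and Map1b (0.993 and 0.964), and r was 0.983, 0.901 and 0.983 without the 2 tumours farthest from the median of Bgn. For Dcn they were Ergic3 (0.927 and 0.929), Nfatc2 (0.913 and 0.964) and Slc39a3 (0.903 and 0.821), with r of 0.851, 0.870 and 0.911 without the 2 farthest tumours. For Lum they were Abca9 (0.981 and 0.857), Mtmr10 (0.968 and 0.893) and S100a10 (0.956 and 0.857), with r of 0.931, 0.787 and 0.892. No gene was among the closest of more than 1 of these members.

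The secondary tumour 14B, a single sample with no replicate, was set beside tumour 14A, which bears the same number, although the labels do not say that they come from 1 animal. In total 4 members were at least 2-fold higher in tumour 14B and 0 at least 2-fold lower, where 8.89% of tested genes were that much higher and 7.09% that much lower. Aspn stood at 43.4 CPM in tumour 14B against 8.12 CPM in tumour 14A, Ogn at 25.0 against 9.51, Podn at 10.9 against 4.73 and Bgn at 1180.4 against 534. Their log2 differences were 2.40, 1.38, 1.18 and 1.15. Dcn (0.22), Lum (0.54) and Prelp (0.47) differed by less, and Fmod (0.12) and Omd (0.01, from 8 and 4 counts) were within counting error, as was Chad (-0.80, from 37 and 10 counts). Scaled by library size only, 2 members passed 2-fold upwards, Aspn and Ogn, where 7.34% of tested genes did, and the median of all tested genes moved from 0.01 to -0.18. Against the other Pak2-null primary tumours 13, 59 and 61, tumour 14B was lower in every member but Chad. The acinar gene Cpa1 stood at 21457 CPM in tumour 14B, and its part in these differences was not tested.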

How the data were processed

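The authors deposited raw counts of reads for each gene and tumour, none pooled, beside a gene length in bases. The tools named per the submitters' processing notes are STAR and HTSeq, and the builds GRCm38 and mm10. The sources used here give no versions, annotation release, strand setting or filters, so reads of a gene and of an antisense partner cannot be told apart. Columns were matched to tumours by name. All 8 count columns were used, 0 belonged to other samples, 0 entries named no gene (0% of counts) and 0 columns were identical. The listed symbols Ccn4 and Adgre1 stand in the table as Wisp1 and Emr1. Of the identifiers 97.8% were found in GENCODE M21.

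Counts of the 7 primary tumours entered edgeR 4.0.16 (R 4.3.3), scaled by TMM and filtered by filterByExpr (minimum count 10, minimum total count 15, leaving 15412 genes), the quasi-likelihood test and Benjamini-Hochberg adjustment at 0.05. Each SE is the absolute log2 fold change over the root of F. CPM use the summed counts of tested genes with TMM factors from the 8 tumours. Log2 CPM used a prior count of 2. Floors of 3 counts and counting intervals cover counting error only, since PCR copies are counted separately. The fits were tested on simulated counts in which every gene had the same dispersion. That test does not show how the fits behave at the spread between these tumours. DESeq2 1.42.0, limma 3.58.1 (voom), other normalisations, other filters, other sets of tumours and leaving out each tumour were alternatives. The members and lists were chosen with earlier results of these data known. Named are all members, up to 4 tested genes with the lowest p of each related list, and the 3 genes most correlated with each of the 3 most abundant members (mean log2 CPM of at least 3). Other genes were named after their values were seen: marker genes, Xist, Ddx3y and genes that overlap members.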

Additional observations from a re-analysis of the deposited data

Results flagged for a closer look

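Within the 4 Pak2-null primary tumours, Bgn in tumour 14A stood apart from the others. On the log2 CPM scale its gap to the nearest tumour was 0.853 of the range of the group, above the value of 0.829 that Dixon's test gives for 4 samples. Such a test was made for each of the 10 members, and chance flags about 1 in 20 groups. Aspn and Ogn, also lowest in tumour 14A, had gaps of 0.827 and 0.809.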

How the results depend on the processing

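The number of genes called over the whole table by edgeR's adjusted test was 11, and it was 4 with genes of mean log2 CPM of at least 1, 4 with all 8 tumours in 3 groups, 191 with tumour 14B counted as Pak2-null, 1149 by DESeq2, 950 by limma-voom with quality weights and 0 with tumour 19 as the only wild-type tumour, an alternative chosen after seeing the data. Leaving out 1 tumour gave 0 (without 13, 59, 61 or 20) to 59 (without 19), with 1 without 127. Of the members 0 were called, against 4 by DESeq2, 4 by voom and 1 (Chad, adjusted p = 0.0482) with tumour 14B counted as Pak2-null by edgeR. Members at an unadjusted p under 0.05 numbered 4, and 4 to 6 with 1 tumour left out (6 without tumour 61). Of the related genes 0 were called, against 11 by DESeq2 and 10 by voom, where these tools called 7.71% and 6.16% of all genes they tested. At an unadjusted p under 0.05 there were 15 by edgeR's test, where 12.9% of all tested genes were. By voom there were 30, and with 1 tumour left out 10 (without 127) to 26 (without 14A). For voom and the fits with 1 tumour left out, the share of all tested genes at that threshold was taken only without tumour 19 (15%). The changes in these counts, and in those of the members, are therefore no result about the lists or the members.

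Fmod, Prelp, Chad and Podn kept a negative log2 fold change in all 17 alternatives. Leaving out 1 tumour gave -0.14 to 0.44 for Dcn, -0.32 to 0.32 for Bgn, -1.17 to 0.86 for Aspn and -0.19 to 0.66 for Lum. Dcn turned to -0.022 with tumour 14B counted as Pak2-null, -0.11 without 13, -0.14 without 59, -0.10 without 127 and -0.006 without 19. Bgn turned to 0.059 by voom, 0.32 without 14A, 0.26 without 127 and 0.48 with tumour 19 alone. Lum turned to -0.19 without 59. Aspn turned to 0.86 without 20 and 1.98 with tumour 19 alone, where Omd turned to 0.76 and Ogn to 0.12. With exon lengths of GENCODE M21 the mean level of Bgn was 534 RPKM and that of Dcn 161 RPKM, because their exon lengths there are longer than the deposited ones, and Bgn stayed first and Dcn second. The shares and the Bgn to Dcn ratio in each tumour rest on the deposited lengths and were not computed with the exon lengths. They depend on that choice. For the other results named here the cause was not tested. No paired analysis was possible because the groups share no replicate numbers. Low counts limit Omd and Chad, with 7 to 37 counts of Chad in each Pak2-null primary tumour.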
